A study of Mus musculus with 18 samples.

Results

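The Notch pathway genes are the 3 receptors *Notch1*, *Notch2* and *Notch3*, the 4 ligands *Dll1*, *Dll3*, *Jag1* and *Jag2*, and the 3 transcriptional targets *Hes1*, *Hey1* and *Hey2*. They were selected by gene symbol from the deposited count table and make up 10 of its 51912 genes. All 10 were among the 24495 genes with enough reads to be tested. The astrocytes were grown from pooled cortices of male and female PD 0 mice that carried the Aldh1l1-EGFP/Rpl10a transgene (line JD130Htz on a B6;FVB background). All dishes held this transgene, which places an EGFP-tagged ribosomal protein (Rpl10a) under the astrocyte *Aldh1l1* promoter, so that ribosomes are tagged only in cells in which this promoter is active. Cultures reached confluence over 14 days, were subcultured for 6 days, kept without serum for 24 h and then received 50 mM ethanol or control medium for 24 h. Translating ribosome affinity purification (TRAP) gave RNA bound to tagged ribosomes (IP) from 6 control and 6 ethanol-treated dishes. RNA of the unfractionated lysate (input) was sequenced from 6 of these dishes, which are replicates 4 to 6 in control (n = 3) and in ethanol (n = 3). The dish is the replicate, so p-values within a fraction measure the spread between dishes. The main tests across fractions used all 18 libraries without a term for the dish, although 6 dishes gave both fractions.

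The libraries had 74239854 to 132810705 read pairs on genes, with a median of 84119135. The tagged lineage was checked first: *Aldh1l1* had 375 ± 14.9 CPM (read counts relative to the TMM-scaled library size, mean ± SD) in IP and 181 ± 9.87 CPM in input, while the endogenous *Rpl10a* had 245 ± 9.10 and 354 ± 11.4 CPM. Of 8 astrocyte markers, 7 were higher and 1 was lower in IP vs. input. Markers of other cells were present as well. The 6 microglial markers summed to 39.3 to 51.7 CPM in input and 6.37 to 9.14 CPM in IP, with 5 of 6 lower in IP, and 4 of 5 fibroblast markers were lower in IP. The 8 mural cell markers summed to 1310 to 1381 CPM in input control and 910 to 978 CPM in input ethanol, and to 1649 to 1782 CPM in IP control and 1074 to 1274 CPM in IP ethanol, mostly from *Acta2*. Of the mural markers, 4 were higher and 2 were lower in IP. *Pdgfrb* averaged 93.6 ± 3.25 in IP against 136 ± 1.97 CPM in input and *Cspg4* 23.4 ± 2.64 against 11.2 ± 1.28 CPM. The pericyte marker *Kcnj8* was below 0.1 CPM in every library. Of the 6 endothelial markers tested, 1 was higher and 4 were lower in IP. The higher one was *Kdr*, with 4.56 ± 0.728 in IP against 2.85 ± 0.629 CPM in input. *Flt1*, one of the lower ones, averaged 5.85 ± 0.423 in IP against 6.89 ± 0.254 CPM in input. *Cldn5* was below 0.1 CPM in every library.

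Notch receptors are single-pass membrane proteins activated by ligands of the Delta and Jagged families on neighbouring cells. Ligand binding exposes the receptor to ADAM proteases and then to gamma-secretase, which releases the intracellular domain. In the nucleus this domain joins RBPJ and Mastermind proteins to switch on genes of the Hes and Hey families, which are repressors of transcription. In the developing cortex the pathway holds progenitors in an undifferentiated state and favours glial over neuronal fate, and in perivascular cells *Notch3* is the characteristic receptor.

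*Jag2* and *Hey2* showed the largest ethanol effects among the members called in input, in opposite directions. In IP, *Jag2* was called as well and *Hey2* was not, and the *Hey2* call in input was not stable, as given below. The sequences around the starts of both genes are shown. Both are RefSeq sequences of GRCm38.p6, each 250 bases before and 10 bases after the annotated start, read 5′ to 3′ along the gene. Capitals mark GTGGGAA, the core that RBPJ binds, or its reverse complement TTCCCAC. *Hey2* is on the minus strand at chr10:30842774-30843033 and *Jag2* on the minus strand at chr12:112929486-112929745.
Hey2: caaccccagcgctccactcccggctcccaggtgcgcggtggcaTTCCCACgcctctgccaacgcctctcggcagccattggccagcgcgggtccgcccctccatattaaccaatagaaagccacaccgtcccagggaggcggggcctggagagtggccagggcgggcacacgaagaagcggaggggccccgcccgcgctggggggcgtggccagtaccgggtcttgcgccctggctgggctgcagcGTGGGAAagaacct
Jag2: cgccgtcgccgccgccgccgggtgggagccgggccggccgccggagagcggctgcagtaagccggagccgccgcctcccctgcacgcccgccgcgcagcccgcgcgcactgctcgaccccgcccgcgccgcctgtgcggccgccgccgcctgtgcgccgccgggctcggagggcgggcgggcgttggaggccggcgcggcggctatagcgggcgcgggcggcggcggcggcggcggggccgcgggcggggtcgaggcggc
The *Hey2* sequence holds the motif in 2 places, 207 bases before the start on the strand opposite to the gene and 4 bases before the start on the gene's own strand. The *Jag2* sequence holds none, and its GC content was 86.9%, against 70.4% for *Hey2*. Windows of 300 bases (250 before and 50 after the start) were found for 8 of the 10 members, 9 windows in all because *Dll1* has a pair of starts, and 1 of these 9 windows held the motif. Among the 32851 windows of all genes, 2097 (6.38%) held it on either strand and 84 (0.256%) held it at least 2 times. A match of letters is a description of the sequence and does not show that a protein binds there.

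Expression per length differed widely between members, and the order is given as CPM per kb of the longest annotated transcript. In IP control (n = 6), *Notch2* had the highest value, 22.3 ± 0.712 CPM per kb, followed by *Hes1* (20.1 ± 0.740), *Jag1* (17.1 ± 0.398), *Notch3* (14.6 ± 0.313), *Notch1* (10.5 ± 0.530) and *Hey1* (9.78 ± 0.449). The other members were far lower. *Jag2* had 1.35 ± 0.145 CPM per kb, *Dll1* 1.34 ± 0.118, *Hey2* 0.894 ± 0.0824 and *Dll3* 0.117 ± 0.0204. Neighbours in this order did not overlap between libraries, except *Notch1* with *Hey1* and *Jag2* with *Dll1*. *Notch2* was therefore the most abundant receptor message, *Jag1* the most abundant ligand message and *Hes1* the most abundant target message in the tagged fraction. In input control (n = 3) the order was the same, with *Notch2* at 23.1 ± 0.186 and *Hes1* at 21.6 ± 1.65 CPM per kb, and here *Notch2* overlapped with *Hes1*, *Notch3* with *Notch1*, and *Dll1* with *Hey2*.

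The unstranded counts leave out read pairs that fall on 2 genes at once, which lowers the level of genes with an antisense neighbour. *Notch1* overlaps exons of 0610009E02Rik, *Dll1* those of A930024N18Rik and *Notch3* those of Gm17276, all on the other strand. Counts restricted to the gene's own strand were 130 to 140% of the unstranded ones for *Notch1*, 114 to 138% for *Dll1* and 108 to 110% for *Notch3*. With them, *Notch1* in IP control was at 13.8 ± 0.622 CPM per kb and *Notch3* at 15.5 ± 0.309, and in input control *Notch1* (13.7 ± 0.361) lay above *Jag1* (12.2 ± 0.419) and *Notch3* (11.8 ± 0.559). The place of *Notch1* among the members thus depended on how antisense reads were counted in input control, and was the same with both counts in IP control. With the counts of the gene's own strand, *Dll1* (1.60 ± 0.134 CPM per kb) lay above *Jag2* (1.30 ± 0.143) in IP control.

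**Figure D1:**
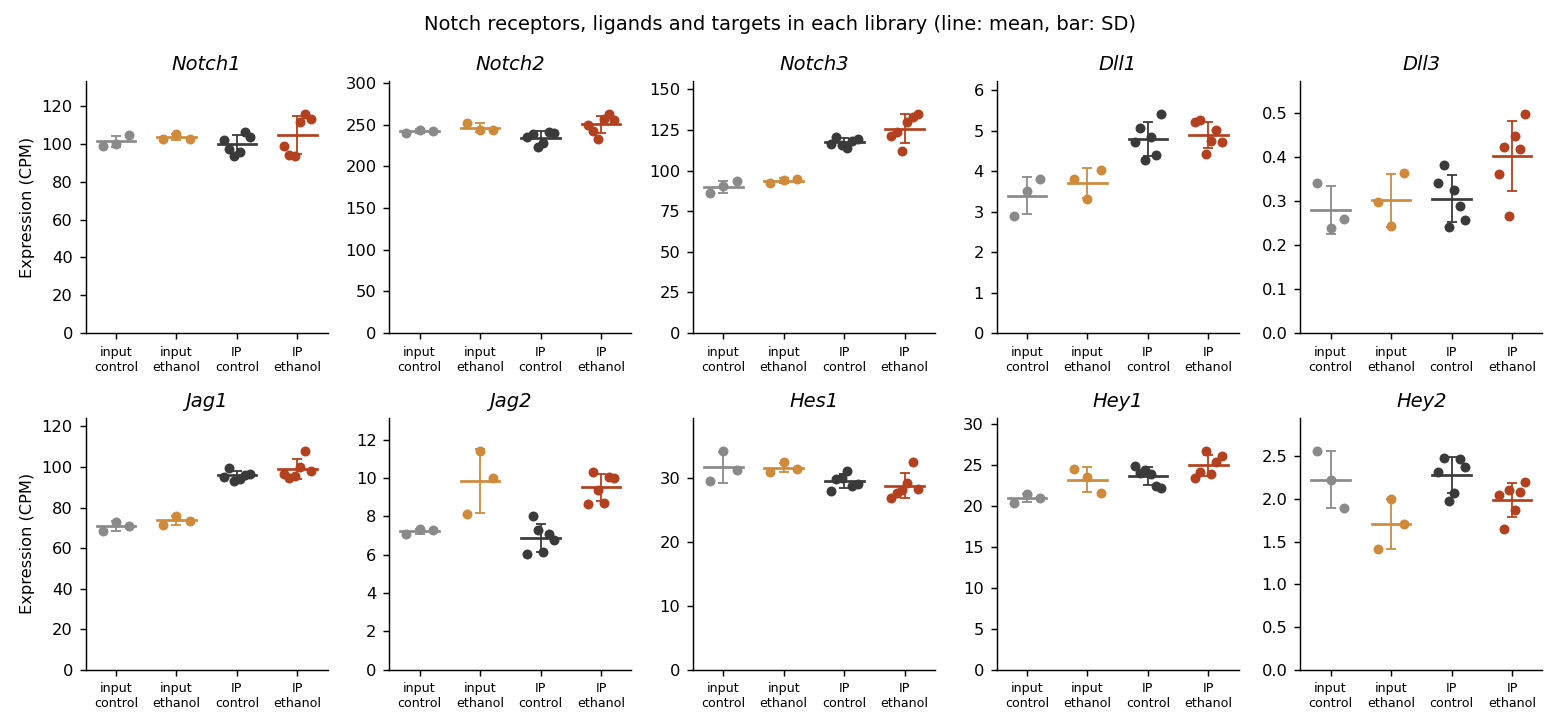
Expression in CPM (vertical axes, from 0) of the 10 Notch pathway genes in each of the 18 libraries (points, in replicate order), by fraction and treatment, with the mean (line) and SD (bar). *Jag2* is higher in all ethanol libraries than in all control libraries of the same fraction, *Notch3*, *Dll1* and *Jag1* are higher in all IP than in all input libraries, and *Notch1* in IP ethanol falls into 3 lower and 3 higher libraries.

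The first comparison asked whether ethanol changed the pathway's mRNAs on tagged ribosomes. In IP, ethanol upregulated *Jag2*, *Notch2* and *Notch3*, and no member was downregulated at an adjusted p below 0.05 (edgeR quasi-likelihood test, 6 vs. 6 libraries, Benjamini-Hochberg adjustment over all genes tested). The 3 of 10 members called stand beside 21.4% of all genes called in this comparison, with 11.9% of all genes called as higher and 9.48% as lower. In a fit of the 13453 genes that averaged at least 1 CPM, 5366 were called. Of the members, only *Dll3* lay below that level. The median log2 fold change was 0.08 over the members and 0.01 over all genes. In these bulk libraries, fewer cells of a type and less RNA per cell cannot be told apart.

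Among the receptors, *Notch1* (ENSMUSG00000026923, chr2:26457903-26516663) is the broadly expressed founding receptor of the family. In IP it ranged from 93.4 to 106 CPM with a median of 99.8 in control and from 93.3 to 116 CPM with a median of 105 in ethanol. The groups overlapped, with a log2 fold change of 0.08 (adjusted p = 0.504, edgeR, SE 0.0641). Its ethanol libraries fell into a lower set, replicates 1 to 3 at 93.3 to 99.0 CPM, and a higher set, replicates 4 to 6 at 112 to 116 CPM.

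*Notch2* (ENSMUSG00000027878, chr3:98013527-98150361), a receptor of glial and progenitor cells, ranged from 223 to 242 CPM (median 237) in IP control and from 233 to 263 CPM (median 252) in IP ethanol. The log2 fold change was 0.10 (adjusted p = 0.00215, edgeR, SE 0.0257), a rise of 7.26%, and the groups overlapped. *Notch3* (ENSMUSG00000038146, chr17:32120820-32166852), the receptor typical of perivascular cells, ranged from 114 to 120.5 CPM (median 117) in IP control and from 112 to 135 CPM (median 127) in IP ethanol. Its log2 fold change was 0.11 (adjusted p = 0.0223, edgeR, SE 0.0340), a rise of 7.78%, and the lowest library of all was an ethanol library, replicate 3.

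Both receptor calls rested on a small effect and on the handling of transcript length and GC content. The longest transcripts of *Notch2* (10500 bases), *Notch1* (9488) and *Notch3* (8016) are the longest of the members, and with trends of GC content and length removed the log2 fold change was 0.03 for *Notch2* (adjusted p = 0.226) and 0.01 for *Notch3* (adjusted p = 0.843). The *Notch3* call was also lost without IP control replicate 4 or IP ethanol replicate 6, where the highest adjusted p was 0.0552, and with stranded counts (log2 fold change 0.09, adjusted p = 0.0612).

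The ligands behaved differently from each other. *Jag2* (ENSMUSG00000002799, chr12:112907819-112929776), a Jagged ligand present at low level, ranged from 6.02 to 8.004 CPM (median 6.91) in IP control and from 8.68 to 10.3 CPM (median 9.69) in IP ethanol. Every ethanol library was above every control library. *Jag2* was the 1 member of 10 without overlap between groups, beside 9.96% of all genes. Its log2 fold change was 0.47 (adjusted p = 1.14e-08, edgeR, SE 0.0587), a rise of 38.6%. It was called in all 12 fits that left out 1 library, and stayed called with GC and length trends removed, at 0.37 (adjusted p = 5.95e-07).

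*Jag1* (ENSMUSG00000027276, chr2:137081456-137116644), the abundant Jagged ligand, ranged from 93.3 to 99.7 CPM (median 95.7) in IP control and from 94.5 to 108 CPM (median 97.3) in IP ethanol, a log2 fold change of 0.05 (adjusted p = 0.200). The ratio of *Jag1* to *Jag2* per length was 11.3 to 14.4 (median 12.7) in IP control and 8.32 to 10.5 (median 9.53) in IP ethanol. These ranges did not overlap, and no share over other pairs of genes was computed. *Jag1* thus remained the main Jagged message in both groups while the share of *Jag2* was larger with ethanol.

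The Delta-like ligands had no calls. *Dll1* (ENSMUSG00000014773, chr17:15367354-15376872), a canonical Notch ligand, ranged from 4.27 to 5.41 CPM in IP control and from 4.42 to 5.25 CPM in IP ethanol, a log2 fold change of 0.04 (adjusted p = 0.759). *Dll3* (ENSMUSG00000003436, chr7:28293553-28302238), a divergent ligand that does not activate receptors on other cells, had 19 to 59 read pairs per library over the IP libraries. It ranged from 0.241 to 0.382 CPM in control and from 0.266 to 0.499 CPM in ethanol. The log2 fold change of *Dll3* was 0.40 with an SE of 0.213 (adjusted p = 0.204), and the groups overlapped.

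None of the 3 targets was called in IP. *Hes1* (ENSMUSG00000022528, chr16:30064384-30067796), the classic target that represses proneural genes, ranged from 27.9 to 31.0 CPM (median 29.5) in control and from 26.9 to 32.5 CPM (median 28.2) in ethanol, and the log2 fold change was -0.03 (adjusted p = 0.688, SE 0.0367). *Hey1* (ENSMUSG00000040289, chr3:8663359-8667256), a repressor induced by Notch in glial and vascular cells, ranged from 22.3 to 24.9 CPM (median 24.0) and from 23.4 to 26.8 CPM (median 24.8), a log2 fold change of 0.08 (adjusted p = 0.115). With GC and length trends removed *Hey1* was called, at 0.09 (adjusted p = 0.0470).

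*Hey2* (ENSMUSG00000019789, chr10:30832359-30842801), the related repressor whose start sequence is shown above, had 121 to 246 read pairs per IP library. It ranged from 1.98 to 2.48 CPM (median 2.35) in IP control and from 1.65 to 2.20 CPM (median 2.06) in IP ethanol. The log2 fold change was -0.19 (adjusted p = 0.153, edgeR, SE 0.0918), and the groups overlapped. The ratio of *Hey1* to *Hey2* per length was 9.58 to 13.0 in IP control and 12.1 to 15.4 in IP ethanol, with overlap.

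**Figure D2:**
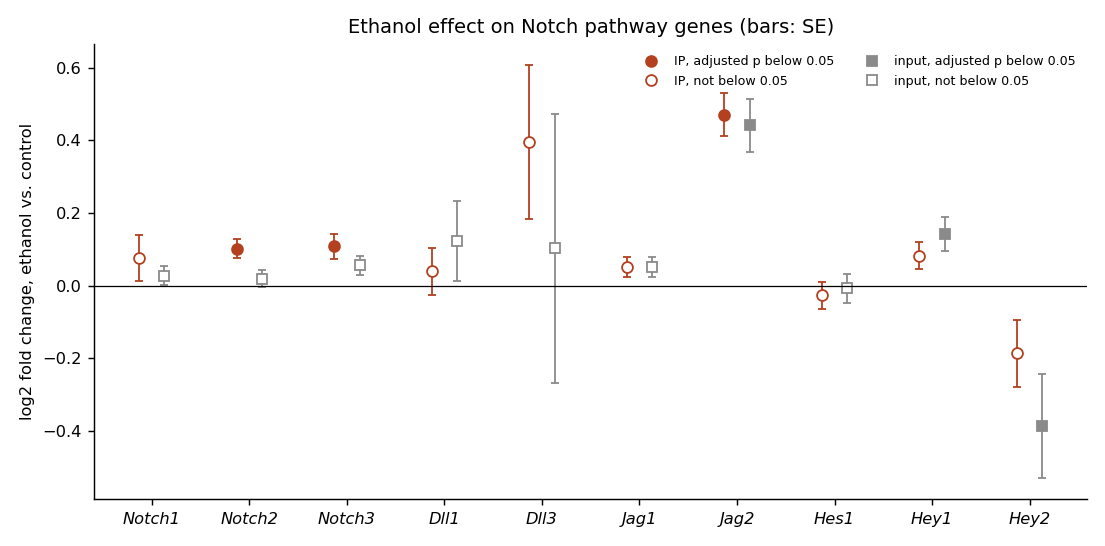
Log2 fold change of ethanol vs. control (vertical axis) with its SE for the 10 Notch pathway genes in IP (circles, 6 vs. 6 libraries) and input (squares, 3 vs. 3 libraries), filled where the adjusted p is below 0.05. *Jag2* is filled in both fractions at 0.47 and 0.44, the receptors *Notch2* and *Notch3* in IP, and *Hey1* and *Hey2* in input at 0.14 and -0.39.

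The second comparison asked the same of the RNA of the whole lysate. In input, ethanol upregulated *Jag2* and *Hey1* and downregulated *Hey2* (edgeR, 3 vs. 3 libraries), 3 of 10 members beside 15.0% of all genes called (7.21% higher and 7.78% lower). In a fit of the 13453 genes that averaged at least 1 CPM, 3626 were called, and *Hey2* was not (adjusted p = 0.0542, edgeR). The median log2 fold change was 0.05 over the members and -0.00 over all genes. Input and IP libraries of replicates 4 to 6 come from the same dishes, so the values of the fractions are given side by side and are not independent of each other. *Jag2* and *Hey1* had no overlap between groups, 2 of 10 members beside 27.1% of all genes.

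*Jag2* in input had 7.07, 7.33 and 7.28 CPM in control replicates 4 to 6 and 8.12, 11.4 and 9.99 CPM in ethanol replicates 4 to 6. The control libraries lay close together and the ethanol libraries spread over a wider range, all above control. The log2 fold change was 0.44 (adjusted p = 8.57e-08, edgeR, SE 0.0731), a rise of 35.8%, and *Jag2* was called in all 6 fits that left out 1 library. The ratio of *Jag1* to *Jag2* per length was 8.78 to 9.07 in input control and 6.03 to 8.02 in input ethanol.

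*Hey1* in input had 20.5, 21.5 and 21.0 CPM in control and 24.5, 23.6 and 21.6 CPM in ethanol. The lowest ethanol library, replicate 6, was level with the highest control library at this precision. The log2 fold change was 0.14 (adjusted p = 0.0207, edgeR, SE 0.0468). *Hey2* in input had 2.57, 2.22 and 1.89 CPM in control and 1.41, 2.00 and 1.71 CPM in ethanol, from 123 to 225 read pairs per library. Its log2 fold change was -0.39 (adjusted p = 0.0473, edgeR, SE 0.144), a difference of -23.5%, and the highest ethanol library was above the lowest control library.

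Neither target's call was stable to single libraries. *Hey1* was not called without input control replicate 4 or 6 or input ethanol replicate 4 or 5 (highest adjusted p = 0.204), and *Hey2* was not called without input control replicate 4 or 5 or input ethanol replicate 4 or 6 (highest adjusted p = 0.335). The *Hey2* value was -0.39 with DESeq2, where the adjusted p was 0.115, and -0.38 with GC and length trends removed, where it was 0.0508. The ratio of *Hey1* to *Hey2* per length was 8.39 to 11.7 in input control and 12.4 to 18.3 in input ethanol. These ranges did not overlap, in a comparison where 27.1% of single genes did not overlap either. The ratio is built from the values of *Hey1* and *Hey2* already given for these libraries, and it overlapped in IP. No share over other pairs of genes was computed.

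The other members were not called in input. *Notch3* had 86.1, 90.5 and 93.6 CPM in control and 92.4, 94.4 and 94.7 CPM in ethanol (log2 fold change 0.06, adjusted p = 0.172). *Notch1* and *Notch2* had log2 fold changes of 0.03 and 0.02 (adjusted p = 0.607 and 0.692), and *Jag1* had 0.05 (adjusted p = 0.269), the same as in IP. *Dll1* had 0.12 (SE 0.110), *Dll3* 0.10 (SE 0.370) and *Hes1* -0.01 (SE 0.0400), with adjusted p of 0.562, 0.919 and 0.948.

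The difference of the ethanol effect between the fractions was tested as an interaction over all 18 libraries, without a term for the dish. No member had an adjusted p below 0.05, and 0 of 24495 genes (0.0%) did with edgeR, where 1459 genes had an unadjusted p below 0.05 and DESeq2 called 2 genes. The receptors called in IP and not in input had a difference of 0.07 (*Notch2*, SE 0.0406, adjusted p = 0.849) and 0.04 (*Notch3*, SE 0.0565, adjusted p = 0.948), so that a difference between fractions was not shown for them. When the 6 dishes that gave both fractions were fitted alone, each dish being a block, the difference was 0.15 for *Notch1* (SE 0.0401, adjusted p = 0.0610), 0.13 for *Notch2* (adjusted p = 0.0610) and 0.14 for *Notch3* (adjusted p = 0.0761). With GC and length trends also removed these values were 0.04, 0.04 and 0.03, with adjusted p from 0.937 to 0.951. *Jag2* differed by 0.02 between fractions (SE 0.121).

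More members were called in one set of dishes than in the other, but no member's ethanol effect was shown to differ between the sets. In replicates 4 to 6 of IP, the dishes that also gave input, 6 members were called as higher with ethanol, beside 15.2% of all genes called in these dishes. *Notch1* had a log2 fold change of 0.16 (adjusted p = 8.32e-05), *Notch2* 0.13 (adjusted p = 0.000460), *Notch3* 0.18 (adjusted p = 1.65e-06), *Jag1* 0.10 (adjusted p = 0.0379), *Jag2* 0.52 (adjusted p = 2.50e-10) and *Hey1* 0.13 (adjusted p = 0.0479). In replicates 1 to 3 of IP, 1 member was called, *Jag2* at 0.41 (adjusted p = 4.84e-06), beside 12.2% of all genes, and the receptors had -0.03 (*Notch1*), 0.06 (*Notch2*) and 0.02 (*Notch3*).

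*Notch3* in IP control was 116 to 120.5 CPM in replicates 1 to 3 and 114 to 119 CPM in replicates 4 to 6, and in IP ethanol it was 112 to 124 CPM in replicates 1 to 3 and 130.2 to 135 CPM in replicates 4 to 6. The test of the difference between both sets of dishes gave 0.19 for *Notch1* (SE 0.0520, unadjusted p = 0.000329), 0.17 for *Notch3* (SE 0.0495, unadjusted p = 0.000773) and 0.11 for *Jag1* (SE 0.0508, unadjusted p = 0.0327) in edgeR, with an adjusted p of 1 for each. Over all genes, 0 of 24495 passed that test after adjustment and 1058 had an unadjusted p below 0.05. With the set of dishes as a term in the fit of all 12 IP libraries, *Notch2* (adjusted p = 0.000541), *Notch3* (adjusted p = 0.00315) and *Jag2* (adjusted p = 4.13e-09) were called. The labels name no batch for these dishes, and the part of preparation or sequencing in this was not tested.

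**Figure D3:**
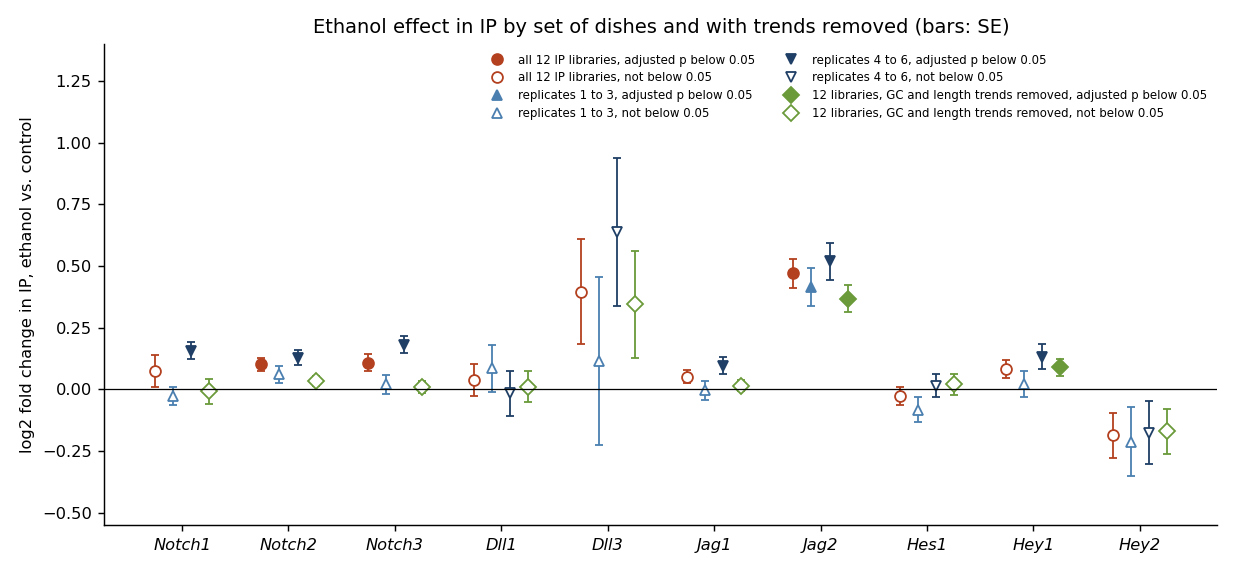
Log2 fold change of ethanol vs. control in IP (vertical axis) with its SE for the 10 Notch pathway genes, in all 12 IP libraries (circles), in replicates 1 to 3 (upward triangles), in replicates 4 to 6 (downward triangles) and in all 12 libraries with GC and length trends removed (diamonds), filled where the adjusted p is below 0.05. *Jag2* is filled in all 4 fits, from 0.37 to 0.52, and *Notch1*, *Notch2* and *Notch3* lie higher in replicates 4 to 6 than in the other fits.

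The third comparison set IP against input over all 18 libraries with treatment as a term and no term for the dish. It shows the messages over- or underrepresented on tagged ribosomes relative to the lysate. Of the 10 members, *Notch3*, *Dll1*, *Jag1* and *Hey1* were higher and *Hes1* was lower in IP, 5 members beside 51.0% of all genes called (25.2% higher and 25.8% lower). In a fit of the genes that averaged at least 1 CPM, 10404 of 13453 were called. The median log2 fold change was 0.13 over the members and -0.03 over all genes. *Notch3*, *Dll1* and *Jag1* had no overlap between fractions, 3 of 10 beside 25.0% of all genes.

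*Notch3* had 112 to 135 CPM (median 119.9) in IP and 86.1 to 94.7 CPM (median 93.0) in input, a log2 fold change of 0.40 (adjusted p = 1.61e-14, edgeR, SE 0.0279). *Jag1* had 93.3 to 108 CPM (median 96.3) in IP and 68.3 to 75.9 CPM (median 72.3) in input, a log2 fold change of 0.43 (adjusted p = 3.12e-27, edgeR, SE 0.0230). *Dll1* had 4.27 to 5.41 CPM (median 4.80) in IP and 2.89 to 4.04 CPM (median 3.65) in input, a log2 fold change of 0.45 (adjusted p = 3.40e-09, edgeR, SE 0.0623). Every IP library was above every input library for these 1 receptor and 2 ligands.

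The targets moved less. *Hey1* had a log2 fold change of 0.14 (adjusted p = 0.000166, edgeR, SE 0.0322) with 22.3 to 26.8 CPM in IP and 20.5 to 24.5 CPM in input. In the control libraries alone *Hey1* was called, at 0.16, and in the ethanol libraries alone it was not, at 0.10 (adjusted p = 0.0733, edgeR). *Hes1* had -0.12 (adjusted p = 0.000687, edgeR, SE 0.0310) with 26.9 to 32.5 CPM in IP and 29.5 to 34.3 CPM in input, and both overlapped. *Hey2* had 0.12 (adjusted p = 0.244), with 1.65 to 2.48 CPM in IP and 1.41 to 2.57 CPM in input. For scale, the log2 fold change of *Aldh1l1* between the fractions was 1.05, larger than that of any member.

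*Notch2* (-0.01, adjusted p = 0.638), *Jag2* (-0.06, adjusted p = 0.407) and *Dll3* (0.28, SE 0.195, adjusted p = 0.248) were not called between fractions. *Notch1* was at -0.00 (SE 0.0463, adjusted p = 0.963) over 18 libraries. Within the 6 dishes that gave both fractions, fitted with the dish as block, *Notch1* was higher in IP by 0.07 (adjusted p = 0.00605, edgeR). This made 6 members called beside 47.6% of all genes. The others were *Notch3* (0.44), *Dll1* (0.45), *Jag1* (0.45), *Hey1* (0.11) and *Hes1* (-0.09). *Notch2* was called as lower in IP, at -0.06, when libraries were scaled by total counts in place of TMM (adjusted p = 0.00972, edgeR). It was also called at -0.06 with TMM in the control libraries alone (adjusted p = 0.0287, edgeR), and not in the ethanol libraries alone (0.02). Most microglial and fibroblast markers were lower in IP in the same libraries, as given above. Some mural, oligodendrocyte lineage and neuronal markers were higher in IP and others lower. The part of these cells in the values of the members was not tested.

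**Figure D4:**
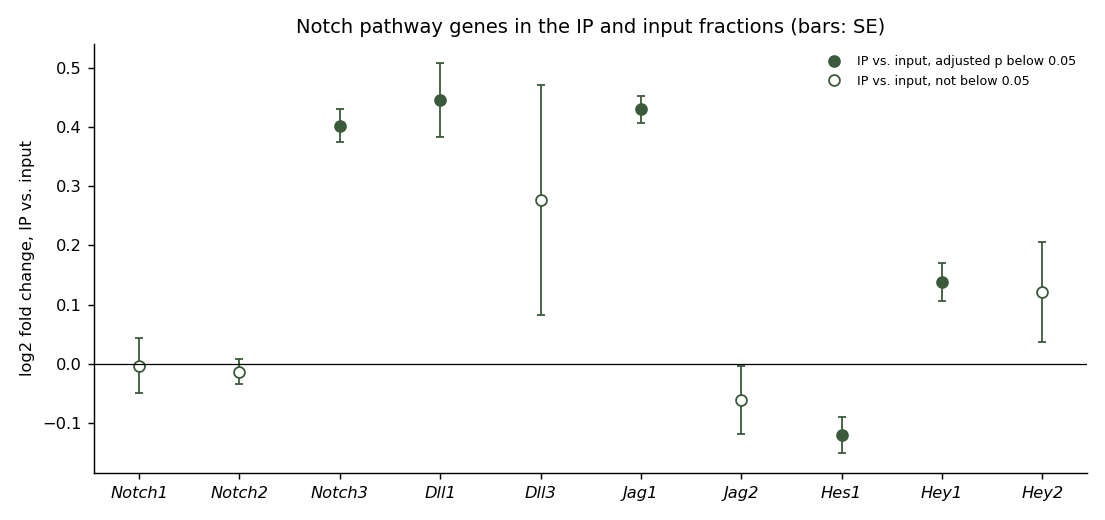
Log2 fold change of IP vs. input (vertical axis) with its SE for the 10 Notch pathway genes over 12 IP and 6 input libraries, filled where the adjusted p is below 0.05. *Notch3*, *Dll1* and *Jag1* lie at 0.40 to 0.45, *Hey1* at 0.14 and *Hes1* at -0.12.

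The wider pathway was described with 75 further genes in 10 lists, of which 72 were tested. In IP, ethanol upregulated 26 and downregulated 5 of the 72, beside 11.9% of all genes called as higher and 9.48% as lower, and the median log2 fold change was 0.08 against 0.01 over all genes. In input, it upregulated 13 and downregulated 4, beside 7.21% and 7.78% of all genes, with a median of 0.03 against -0.00. With GC and length trends removed, 18 rose and 7 fell in IP, beside 2615 and 2743 of the 24495 genes, and the median was 0.04 against 0.00. Between fractions, 30 genes were higher in IP and 19 lower, beside 25.2% and 25.8% of all genes, with a median of 0.06 against -0.03. Among genes that averaged at least 1 CPM, 31 of 59 wider pathway genes were called for ethanol in IP, beside 5366 of 13453 genes. For ethanol in input these counts were 16 and 3626, and in IP vs. input 44 and 10404. The counts per list that follow stand beside these shares.

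In IP, the list of proteases that cut the receptor, which includes further subunits of gamma-secretase, had the largest share of calls among the 10 lists. Of its genes, 7 of 10 were upregulated and 1 was downregulated by ethanol. The shares over all genes were 11.9% and 9.48%. In the fit of genes that averaged at least 1 CPM, 2755 and 2611 of 13453 were called as higher and lower. In input, 4 of 10 were upregulated. *Adam17*, a sheddase, rose from 123 ± 3.26 to 141 ± 4.28 CPM in IP (log2 fold change 0.21, adjusted p = 1.88e-09) and by 0.14 in input (adjusted p = 1.45e-06). *Aph1c*, a subunit of gamma-secretase, rose by 0.21 in IP and 0.29 in input (adjusted p = 0.0136 and 0.0155). Both genes were also called in IP with GC and length trends removed. *Furin*, which was among the upregulated genes, was not called there (0.01, adjusted p = 0.744, edgeR).

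Among the enzymes that glycosylate the receptor, 3 of 6 rose in IP and 1 of 6 rose in input. *Eogt* rose by 0.17 in IP and 0.21 in input (adjusted p = 7.36e-05 and 4.58e-05), *Pofut1*, which adds O-fucose, by 0.13 in IP (adjusted p = 5.78e-05), and the fringe enzyme *Lfng* by 0.11 in IP (adjusted p = 0.0469). Of the genes of ligand endocytosis, 3 of 7 rose in IP. *Neurl1a*, an E3 ligase at 0.937 ± 0.119 CPM in IP control, rose by 0.46 (adjusted p = 0.00346), *Mib2* by 0.11 (adjusted p = 0.00262) and *Epn2* by 0.08 (adjusted p = 0.00632). With GC and length trends removed, *Lfng* (0.08), *Mib2* (0.03) and *Epn2* (0.05) were not called (adjusted p = 0.0944, 0.428 and 0.0514).

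In the nucleus, *Rbpj*, the DNA-binding partner of all Notch receptors, had 81.7 ± 2.35 CPM in IP control and 80.9 ± 3.50 CPM in IP ethanol (log2 fold change -0.01, adjusted p = 0.927). It lies outside the rule for named genes and was added after its values were seen. Of the 8 genes of its complex and coactivators, 3 rose and 1 fell in IP. The Mastermind genes *Maml3* (0.29, adjusted p = 8.78e-08) and *Maml2* (0.15, adjusted p = 8.64e-06) rose, and the acetyltransferase gene *Kat2b* fell, with a log2 fold change of -0.15 (adjusted p = 0.000105). All 3 were called in the same direction in input, at 0.25, 0.09 and -0.13.

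Of 11 corepressor genes, 5 rose and 1 fell in IP, and 3 rose and 2 fell in input. The Groucho family, whose products are recruited by Hes proteins, rose in IP. *Tle1* went from 37.9 ± 1.01 to 47.1 ± 1.53 CPM (log2 fold change 0.32, adjusted p = 7.09e-13), *Tle2* rose by 0.33 (adjusted p = 0.00113), *Tle4* by 0.24 (adjusted p = 1.25e-05) and *Tle3* by 0.07 (adjusted p = 0.0190). With GC and length trends removed *Tle3* was not called, at 0.01. In input, *Tle1* and *Tle4* were called, at 0.23 and 0.19. In the fit with the dish as block, where 0.416% of all genes were called, the ethanol effect on *Spen* differed between fractions, by 0.20 (adjusted p = 5.41e-05), and it was not called with GC and length trends removed (0.08, adjusted p = 0.341).

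Of 10 genes of receptor turnover and negative regulation, 4 rose in IP with ethanol, among them the Deltex genes *Dtx1* (0.17, adjusted p = 3.43e-05), *Dtx2* (0.15, adjusted p = 0.00116) and *Dtx4* (0.10, adjusted p = 0.00213). The *Dtx1* value with GC and length trends removed was 0.07 (adjusted p = 0.0604). In IP vs. input, 9 of these 10 genes were higher in IP and none was lower, beside 25.2% and 25.8% of all genes. Among genes that averaged at least 1 CPM, 5183 of 13453 were higher. *Dtx1* was at 0.83 (adjusted p = 1.31e-37, edgeR).

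The noncanonical ligands were mixed, with 1 of 8 up and 2 down in IP. *Dlk2* fell from 7.38 ± 0.545 to 5.94 ± 0.629 CPM (log2 fold change -0.31, adjusted p = 6.79e-05), *Nov* had a log2 fold change of -0.14 (adjusted p = 0.000422) and the contactin gene *Cntn1* rose by 0.29 (adjusted p = 0.000178). None of the 6 other Hes and Hey genes tested and none of the 4 proneural genes tested was called in IP or input. *Hes6* was the most abundant of these Hes and Hey genes, with 41.8 ± 0.832 CPM in IP control and 41.9 ± 1.31 CPM in IP ethanol. *Hes7* had 1.05 ± 0.251 CPM in IP control, *Hes2* 0.164 ± 0.0433, *Hes5* 0.0709 ± 0.0419, *Heyl* 0.0684 ± 0.0128 and *Hes3* 0.0120 ± 0.0180. The receptor *Notch4* (0.887 ± 0.151 CPM) and the ligand *Dll4* (0.0738 ± 0.0383 CPM) were low in IP control and not called with ethanol (adjusted p = 0.351 and 0.234).

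**Figure D5:**
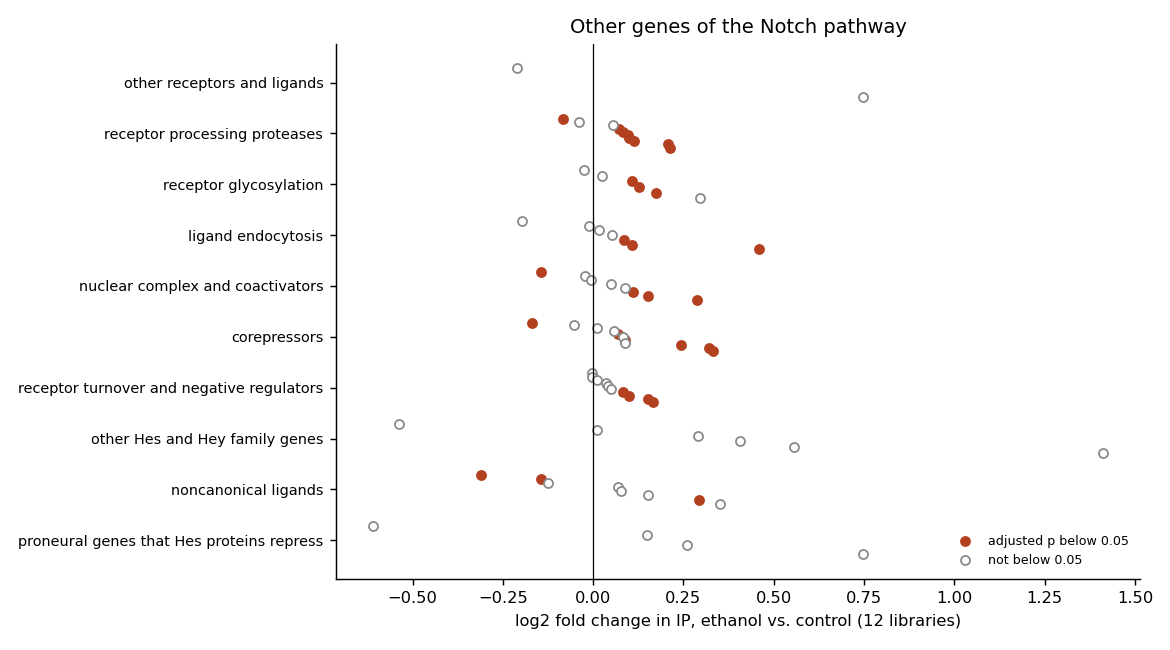
Log2 fold change of ethanol vs. control in the 12 IP libraries (horizontal axis) for the 72 tested genes of the wider Notch pathway by list (rows), 1 point per gene, filled where the adjusted p is below 0.05. Filled points lie to the right of 0 for 26 genes and to the left for 5, and the points farthest from 0 are open ones of low expression.

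The genes whose log2 CPM ran most alike over the 12 IP libraries, among the 11066 genes that averaged 5 CPM or more, were named for the called member of each role with the largest effect. For *Jag2* they were *Tob2* (Pearson's r = 0.974), *Cspg4* (0.967) and *Ogdhl* (0.960). For *Notch3* they were *Plxna1* (0.968), *Bcl9l* (0.944) and *Wdr44* (0.929). All 6 were themselves upregulated by ethanol in IP, by 0.09 (*Plxna1*) to 0.29 (*Cspg4*), so these values reflect libraries of both treatments. No target was called in IP, and none was given such genes. *Cspg4* is also one of the 8 mural cell markers, of which *Acta2* fell by 0.56 and *Tagln* by 0.51 on the log2 scale in the same comparison, and the part of mural cells in the *Jag2* and *Notch3* values was not tested.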

How the data were processed

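RNA was measured in 12 IP and 6 input libraries prepared as stranded, rRNA-depleted total RNA. Per the submitters' processing notes and the methods, the authors used Trimmomatic for trimming and STAR for alignment to GRCm38, and they deposited raw counts of uniquely mapped read pairs per gene and library. Pairs mapped to several places (mean 3.60% of pairs) or to more than 1 gene (mean 5.50%) were left out, which lowers genes with close copies or overlapping neighbours. The series table and the unstranded column of each single file had 0 differences.

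Groups were taken from the sample labels. Genes with at least 10 read pairs over 18 libraries (24495 of 51912) were tested with edgeR 4.0.16 (TMM, robust quasi-likelihood fit) in R 4.3.3, with Benjamini-Hochberg adjustment over all of them and a threshold of 0.05. The SE is the absolute log2 fold change divided by the square root of F. CPM and fold changes were computed from the deposited counts. DESeq2 1.42.0, other scalings and filters, stranded counts, a fold threshold, a replicate block, left-out libraries, dish sets and removal of GC and length trends (a spline per library, centred in each fraction) were alternatives. Fits were tested on simulated data. The closest replicates, IP control 5 and 6, differed by more than sampling noise (chi-square of 4.06 for each degree of freedom). Positions and transcript lengths are from GENCODE M21.

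Input and IP libraries with 1 treatment and number come from the same dish, per the methods. Their deviations from the group means correlated at 0.0340 to 0.206 over 6 dishes, against -0.177 to 0.134 (mean -0.0205) between different dishes. The main fits had no term for the dish, which was used as a block only in alternative fits. Ethanol and control dishes share only a number.

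The members, gene lists and tests were chosen with earlier results of these data known. Genes named are the members, *Aldh1l1*, *Rpl10a*, up to 3 called genes of each wider list with the largest ethanol effect in IP, all tested genes of the lists of other receptors and ligands and of other Hes and Hey genes, and the 3 genes most alike to a called member; the few others were named after their values were seen. Some genes of the wider lists are counted but not reported by name here. Ccn3 is listed under its older symbol *Nov*, and *Helt* and *Neurog1* had too few reads to be tested. Promoter sequences are from RefSeq (GRCm38.p6), where *Hes1* and *Hey1* were not matched.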

Additional observations from a re-analysis of the deposited data

How the results depend on the processing

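*Dll3*, with 19 to 59 read pairs per IP library, had the fewest reads among the members, and what counting error and replicate spread each add to its SE was not tested. With a tested fold change of at least 1.2, 1 member was called for ethanol in IP (*Jag2*), 0 in input and 3 in IP vs. input (*Notch3*, *Dll1*, *Jag1*), 0, 0 and 18 of the wider pathway genes, and 95, 55 and 4936 of all genes. In replicates 4 to 6 of IP 6 members were called, and in replicates 1 to 3 of IP 1 member, 16 wider pathway genes and 2995 genes. Leaving out 1 library at a time left 1 to 2 members called for ethanol in input, and 0 to 1 genes with a different ethanol effect between fractions, the 1 gene without IP ethanol replicate 3. For that difference DESeq2 called 2 genes, the 6 dishes with both fractions 13, the same dishes with the dish as a replicate block 102 genes and 2 wider pathway genes (among them *Spen*), the replicate block with GC and length trends removed 56, and the replicate block with stranded counts, chosen after seeing the data, 102 and 2. *Notch1* in IP vs. input turned from -0.00 to 0.068 in the dishes with both fractions and was also 0.068 there with the dish as a replicate block. The cause was not tested in these cases.

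Control and ethanol dishes are linked by number alone. Deviations of same-numbered libraries correlated at -0.149 to 0.399 in IP and 0.0368 to 0.0736 in input. Those of control and ethanol libraries with different numbers correlated at -0.374 to 0.364 in IP and -0.116 to 0.0598 in input. With that number as a replicate block, 4 members were called in IP, where *Notch1* gained a call at 0.07 (adjusted p = 0.0235), and 3 in input, beside 5782 and 3829 of all genes. Sign changes of values that were not called in either fit were not counted as reversals; with all libraries kept there were 34 among the members, between -0.05 and 0.06, and 12 among the wider pathway genes, between -0.42 and 0.17. With 1 library left out there were 20 among the members, between -0.11 and 0.05, and 16 among the wider pathway genes, between -0.39 and 0.63.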
